A study of Mus musculus with 14 samples.

Results

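The genes described here are 10 markers of tuft cells, Pou2f3, Gfi1b, Trpm5, Rgs13, Dclk1, Avil, Ptgs1, Hpgds, Alox5 and Il25. They were taken by name from a table of 37680 mouse genes, as markers of the cell type and with no threshold on a measured value. The table held polyA-selected RNA-seq libraries of the epithelium that EDTA had released from the whole colon. WT mice and mice with Smad4 deleted in the intestinal epithelium (Smad4 KO) were either left on water or given 2.5% dextran sulphate sodium (DSS), a sulphated polysaccharide that injures the colonic epithelium, in the drinking water for 3 d. The groups were WT on water (n = 4), Smad4 KO on water (n = 4), WT after DSS (n = 3) and Smad4 KO after DSS (n = 3). The study's methods gave adult mice of 8 to 14 wk on a background enriched for C57/BL6. Deletion came from a tamoxifen-inducible Cre under the Villin promoter and floxed Smad4, so cells outside the intestinal epithelium kept the gene. Tamoxifen for 4 d is listed for all 4 groups, WT included. The labels number the libraries of a group as replicates, and the p-values below measure the spread between these libraries.

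Tuft cells are rare chemosensory cells of the gut epithelium. They sense luminal signals through a taste-like cascade that ends at the channel TRPM5, and they answer with interleukin 25, eicosanoids and acetylcholine. In the small intestine, interleukin 25 from tuft cells acts on innate lymphoid cells, whose interleukin 13 in turn increases tuft cell number, and the colon holds tuft cells with the same transcription factor, POU2F3.

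Smad4 itself was read first, as a check of the labels. Its normalised count (counts scaled to a common library size, defined with the methods) was 2434, 3188, 2694 and 2372 in the WT libraries on water and 3407, 3649.6 and 3493 in the WT libraries after DSS. The KO libraries after DSS held 878, 808 and 856. On water, KO replicates 2 to 4 held 741, 936 and 702, but the library labelled KO water replicate 1 held 3164, a WT level. It was kept as labelled, and each comparison that used it was also computed without it. The study's figure legends give 3 replicates for Smad4 KO on water, whereas 4 libraries carry that label. Total counts ran from 12882827 to 26087231 per library. Mitochondrial genes took 30.6% and 32.8% of the counts in WT water replicates 3 and 4 and 21.4% in KO water replicate 4, against 4.05 to 8.23% in the other 11 libraries.

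Transcripts of the 10 genes were rare in these libraries. Together they took 0.00322 to 0.00646% of the counts. Their summed normalised count was 956 ± 132 (SD, n = 4) in WT on water, 944 ± 153 (n = 4) in KO on water, 1009 ± 66.0 (n = 3) in WT after DSS and 859 ± 29.5 (n = 3) in KO after DSS. The ranges of the 2 water groups overlapped, 807 to 1096 and 814 to 1165, whereas the range after DSS was 938 to 1068 in WT and 827 to 885 in KO. The sum was not tested, and 11.4% of all genes tested lay apart and lower in KO after DSS. As a share of raw counts, the lowest WT library after DSS was at 0.00476% and the highest KO library at 0.00474%. In bulk RNA, fewer tuft cells and less of a transcript per tuft cell cannot be told apart.

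Levels can be compared between genes only per kilobase of exon. On that scale, as means over the 14 libraries, the signalling regulator Rgs13 stood highest at 56.5 normalised counts per kb, then Hpgds at 46.1, Avil at 45.7, Trpm5 at 27.0 and Dclk1 at 16.6. Alox5 at 13.3, Pou2f3 at 10.6 and Ptgs1 at 9.83 followed, and Gfi1b at 5.41 and Il25 at 1.26 were lowest. The exon length used for Dclk1, 13514 bases, is the union over its isoforms, and the gene-level count does not separate the short from the long form.

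**Figure D1:**
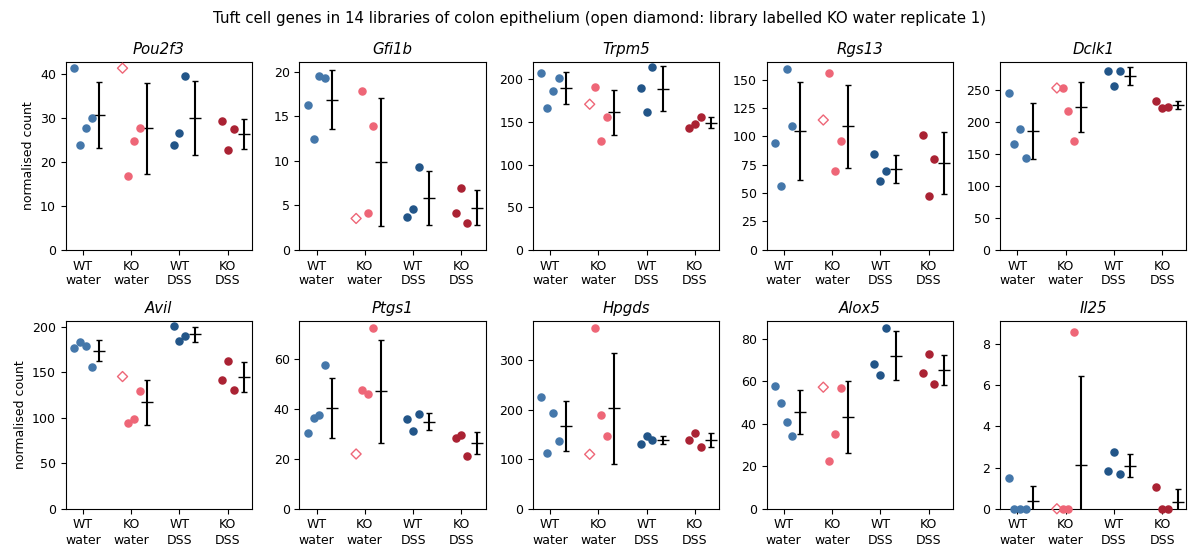
Normalised count (y axis, linear from 0) of each tuft cell gene in every library by group (x axis), with the group mean and SD as a black bar and the library labelled KO water replicate 1 as an open diamond. Avil lay lower in every KO library than in every WT library of the same treatment, 94.3 to 145 against 156 to 183 on water and 130.0 to 163 against 185 to 201 after DSS, while Pou2f3, Rgs13, Hpgds and Alox5 overlapped between the genotypes on both treatments.

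Of the 10 genes, 9 passed the filter of at least 10 counts in at least 3 libraries. Il25 did not pass and was left out of the edgeR and DESeq2 fits, and of the tests made only the exact permutation tests include it. No tuft cell gene passed an adjusted p of 0.05 in any of the 5 comparisons with edgeR's quasi-likelihood test, nor with DESeq2. Between the genotypes, DESeq2 gave no adjusted p to Pou2f3, Gfi1b, Ptgs1 and Alox5 on water, nor to Gfi1b after DSS. The same edgeR test called 0.00661% of the 15127 genes between genotypes on water, 0.747% between genotypes after DSS, 0% for DSS against water in WT, 0.00661% for DSS against water in KO and 0.00661% for the difference between the DSS responses. At an unadjusted p under 0.05 the count of tuft cell genes was 1, 1, 2, 0 and 0 of 9 in that order, and the share of all genes was 20.4%, 15.4%, 24.2%, 6.37% and 7.5%. DESeq2 called 5.2%, 3.23%, 11.4%, 0.476% and 0.0529% of all genes in the same order. The values below are therefore given as levels with their spread and, for each difference, its 95% confidence interval.

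**Figure D2:**
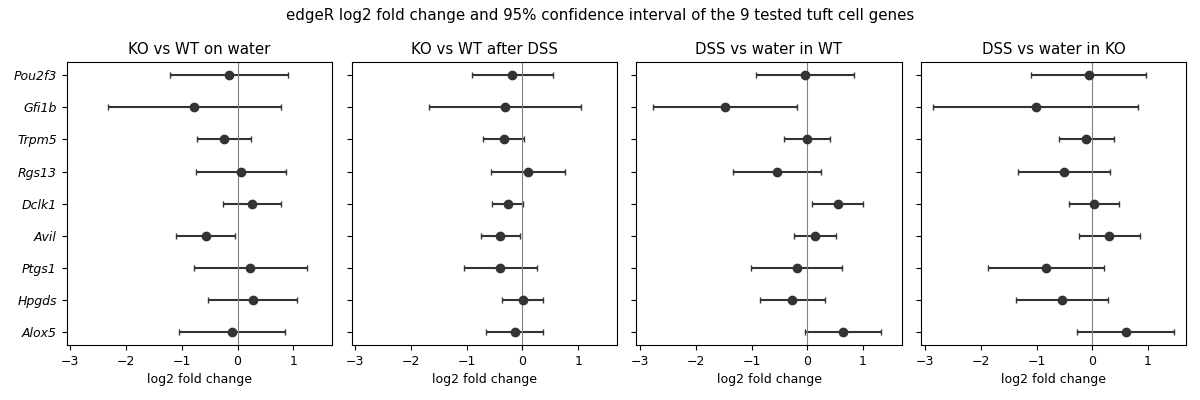
Log2 fold change (x axis) of the 9 tested tuft cell genes (y axis) in the 4 comparisons between groups, as edgeR estimates (points) with 95% confidence intervals (bars). The intervals of Avil in both genotype comparisons and of Dclk1 and Gfi1b for DSS in WT lie on 1 side of 0, and Gfi1b, at 3 to 22 counts per library, has the widest intervals.

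Pou2f3 (chr9:42932022-43018452, minus strand, mm9) encodes the transcription factor without which tuft cells do not form. The libraries held normalised counts of 41.5, 24.0, 27.7 and 29.97 in WT on water, 41.4, 16.7, 24.7 and 27.8 in KO on water, 23.9, 26.5 and 39.6 in WT after DSS and 29.3, 22.7 and 27.4 in KO after DSS. All 4 groups overlapped. KO over WT gave a log2 fold change of -0.15 on water (95% interval -1.21 to 0.90) and -0.18 after DSS (-0.91 to 0.55), and that of DSS over water was -0.04 in WT (-0.93 to 0.84) and -0.06 in KO (-1.10 to 0.97). The group means ran from 26.5 ± 3.43 to 30.8 ± 7.55, and as folds the intervals run from 0.432 to 1.87 between the genotypes on water and from 0.526 to 1.79 for DSS in WT.

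Gfi1b (chr2:28464970-28477502, minus strand) encodes a zinc-finger transcriptional repressor of tuft cells that is also used in the erythroid and megakaryocyte lineages. Its normalised count was 16.3, 12.4, 19.6 and 19.3 in WT on water and 3.68, 4.57 and 9.27 in WT after DSS, and these ranges did not overlap. In KO it was 3.52, 17.9, 4.12 and 13.9 on water and 4.19, 6.90 and 3.05 after DSS, with both levels present among the water libraries. DSS over water in WT gave a log2 fold change of -1.49 (interval -2.78 to -0.20), with an edgeR adjusted p of 0.16. These values rest on 4 to 22 counts per library in WT and 3 to 15 in KO. In KO the same change was -1.02 (-2.85 to 0.81), and the difference between the 2 responses was 0.48 (-1.59 to 2.54), so a like and an unlike response are both within the interval.

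Trpm5 (chr7:150255058-150280547, minus strand) encodes the calcium-activated cation channel that depolarises tuft and taste cells. Normalised counts were 207, 166, 186 and 201 in WT on water, 171, 191, 128 and 156 in KO on water, 190.5, 162 and 215 in WT after DSS and 143, 148 and 156 in KO after DSS. The genotypes overlapped on water, whereas after DSS the highest KO library lay below the lowest WT library. KO over WT gave a log2 fold change of -0.24 on water (-0.72 to 0.25) and -0.34 after DSS (-0.70 to 0.03, edgeR adjusted p = 0.36). DSS left the WT level close to that on water, with a log2 fold change of -0.01 and an interval of -0.42 to 0.41, which holds any difference to within 0.746 to 1.33 times. Trpm5 shares 220 exon bases with Tssc4 on the opposite strand, and because the counting was not stated to use strand, reads from those bases cannot be assigned. Between the genotypes, Tssc4 had a log2 fold change of -0.41 on water (-0.94 to 0.13) and 0.11 after DSS (-0.15 to 0.37). For DSS over water in WT that of Tssc4 was -0.35 (-0.70 to -0.01, edgeR adjusted p = 0.20).

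Rgs13 (chr1:145985797-146024502, minus strand) encodes a regulator that shortens G protein signals. On water its normalised count was 94.1, 55.9, 159.7 and 109 in WT and 115, 156, 69.2 and 96.3 in KO. After DSS it was 84.7, 60.4 and 69.1 in WT and 102, 47.3 and 80.3 in KO. All 4 groups overlapped, and the log2 fold change of KO over WT was 0.07 on water (-0.74 to 0.87) and 0.10 after DSS (-0.57 to 0.77). For DSS over water it was -0.54 in WT (-1.33 to 0.25) and -0.51 in KO (-1.33 to 0.31). The value in WT was -0.07 without WT water replicates 3 and 4, the libraries rich in mitochondrial counts, and -0.05 within the WT libraries whose names begin with D.

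Dclk1 (chr3:55046448-55342986, plus strand) encodes a microtubule-binding kinase that is the most widely used tuft cell marker in the mouse gut. Its normalised count was 245, 166, 189 and 143 in WT on water and 281, 256 and 281 in WT after DSS. Every WT library after DSS was above every WT library on water, with means of 186 ± 43.7 (n = 4) and 272 ± 14.2 (n = 3). For DSS over water in WT the log2 fold change was 0.54 (SE 0.21, interval 0.09 to 1.00), with an edgeR adjusted p of 0.15. The exact two-sided permutation p was 0.0571, the smallest that 4 against 3 libraries can give, and 0.327 after adjustment over the 40 permutation tests made on the tuft cell genes. Within the WT libraries whose names begin with D, 2 on each treatment, the log2 fold change was 0.38. WT water replicates 3 and 4, the libraries rich in mitochondrial counts, held 189 and 143, and without them the log2 fold change was 0.40 with an edgeR adjusted p of 0.29.

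In KO, Dclk1 was at 254, 253, 218 and 171 on water and 233, 223 and 225 after DSS, and these ranges overlapped. The log2 fold change of DSS over water was 0.02 (-0.43 to 0.47). The difference between the KO and the WT response was -0.52 (-1.13 to 0.08), with an unadjusted p of 0.083 and an edgeR adjusted p of 0.66, so the responses were not shown to differ. Between genotypes the log2 fold change was 0.26 on water (-0.26 to 0.78) and -0.26 after DSS (-0.54 to 0.02). After DSS all 3 KO libraries were below all 3 WT libraries.

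Avil (chr10:126437765-126458050, plus strand) encodes advillin, an actin-bundling protein of the tuft cell's apical microvilli and rootlets. On water it was at a normalised count of 177, 183, 179 and 156 in WT and 145, 94.3, 98.8 and 129 in KO. After DSS it was 201, 185 and 189.6 in WT and 141, 163 and 130.0 in KO. Avil was the single tuft cell gene whose KO and WT ranges were apart on both treatments, with the library labelled KO water replicate 1 nearest to WT on water.

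The log2 fold change of Avil in KO against WT was -0.57 on water (SE 0.24, interval -1.10 to -0.04, edgeR adjusted p = 0.22) and -0.40 after DSS (SE 0.16, interval -0.75 to -0.05, edgeR adjusted p = 0.27). Without the library labelled KO water replicate 1 the value on water was -0.69 (edgeR adjusted p = 0.23), and with all 14 libraries in 1 model and that library left out it was -0.70 with an edgeR adjusted p of 0.0449. That was the single fit in which a tuft cell gene passed the threshold, and 7.59% of all genes passed it there. With counts scaled by library totals alone, the value on water was -0.36 (edgeR adjusted p = 0.53). With the first letters of the library names as a term it was -0.45 (edgeR adjusted p = 0.24). Without WT water replicates 3 and 4 it was -0.61 (edgeR adjusted p = 0.60). The exact two-sided permutation p was 0.0286 on water, the smallest that 4 against 4 libraries can give, and 0.327 after adjustment over the 40 tests. After DSS it was 0.1, again the smallest possible. Within the 5 DSS libraries whose names begin with D, the log2 fold change was -0.41.

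Avil shares 165 exon bases with Tsfm, a mitochondrial translation factor gene on the opposite strand, and reads from those bases cannot be assigned without strand. Tsfm had log2 fold changes of -0.03 in both genotype comparisons, with intervals of -0.43 to 0.38 on water and -0.31 to 0.25 after DSS. For DSS over water, Avil had a log2 fold change of 0.14 in WT (-0.24 to 0.52) and 0.31 in KO (-0.25 to 0.86).

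Ptgs1 (chr2:36085946-36107792, plus strand) encodes cyclooxygenase 1, which makes the precursor of the prostaglandins. Its normalised count was 30.4, 36.4, 37.5 and 57.8 in WT on water, 22.0, 47.7, 46.1 and 72.8 in KO on water, 35.9, 31.1 and 37.9 in WT after DSS and 28.3, 29.6 and 21.3 in KO after DSS. The genotypes overlapped on water, and after DSS the KO libraries lay below the WT libraries. The log2 fold change of KO over WT was 0.23 on water (-0.78 to 1.24) and -0.40 after DSS (-1.06 to 0.25, edgeR adjusted p = 0.55). The library labelled KO water replicate 1 had the lowest count of its group, and without it the KO mean on water was 55.5 ± 14.9 (n = 3). In KO the log2 fold change of DSS over water was -0.83 (-1.88 to 0.22). Without that library every KO library after DSS was below every KO library on water, and the log2 fold change was -1.07 with an unadjusted p of 0.032 and an edgeR adjusted p of 0.74. In that fit 1 of the 15127 genes passed the threshold. With that library kept, the log2 fold change was -0.48 with the replicate number as a block. It was -0.42 with the first letters of the library names as a term in a model over all 14 libraries.

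Hpgds (chr6:65067287-65094902, minus strand) encodes the haematopoietic prostaglandin D synthase, which tuft cells share with mast cells and other blood cells. Its normalised count was 225, 114, 194 and 137 in WT on water and 110.1, 365, 189 and 148 in KO on water. It was 132, 146 and 139.9 in WT after DSS and 138, 154 and 125 in KO after DSS. After DSS the genotypes had means of 139 ± 7.41 and 139 ± 14.4 (n = 3 each), with an interval of -0.37 to 0.37 for the log2 fold change. On water the log2 fold change was 0.27 (-0.53 to 1.07), and it became -0.17 without KO water replicate 2, the library at 365.

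Alox5 (chr6:116360095-116411196, minus strand) encodes 5-lipoxygenase, the entry enzyme of leukotriene synthesis. In WT its normalised count was 57.8, 49.7, 40.7 and 34.3 on water and 68.1, 63.1 and 85.1 after DSS. In KO it was 57.2, 22.7, 35.4 and 56.7 on water and 63.9, 72.9 and 58.9 after DSS. In both genotypes every library after DSS was above every library on water. The log2 fold change was 0.64 in WT (-0.04 to 1.32, edgeR adjusted p = 0.23) and 0.60 in KO (-0.28 to 1.47, edgeR adjusted p = 0.83), and the difference between them was -0.05 (-1.08 to 0.99). WT water replicates 3 and 4 held the 2 lowest WT values, and without them the log2 fold change in WT was 0.42 with an edgeR adjusted p of 0.44. Within the WT libraries whose names begin with D it was 0.29. Between genotypes it was -0.09 on water (-1.04 to 0.86) and -0.14 after DSS (-0.65 to 0.37).

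In KO, the comparison of DSS with water has a limit of its own. No first letters of the library names were shared between the KO water and the KO DSS libraries, so what those letters stand for and the treatment cannot be told apart from these libraries alone. With the letters as a term in a model over all 14 libraries, the log2 fold change of Alox5 in KO was -0.02 in place of 0.60, and in WT it was 0.29 in place of 0.64.

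Il25 (chr14:55551608-55554671, plus strand) encodes the cytokine by which tuft cells start a type 2 response. Its reads numbered 2, 0, 0 and 0 in WT on water, 0, 0, 0 and 8 in KO on water, 2, 3 and 2 in WT after DSS and 1, 0 and 0 in KO after DSS, 18 in all. It was at 0 in 8 of the 14 libraries, and a count of 0 allows up to 3 counts. All 3 WT libraries after DSS held reads and each was above the KO libraries, but none exceeded the 3 counts that a library at 0 allows, so no difference was detectable at this depth.

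Across the genes, the genotypes after DSS were compared by sign. Of the 9 tested genes, 7 had a log2 fold change below 0, against 49.6% of all genes, and the median was -0.26 against 0.00 over all genes. These values rested on WT DSS replicate 3: without it, which left the 5 DSS libraries whose names begin with D, 5 of the 9 were below 0 and the median was -0.0029. Gfi1b was then at 0.20 and Pou2f3 at 0.07, while Avil, Ptgs1, Dclk1 and Trpm5 were at -0.41, -0.34, -0.24 and -0.23. The ranges were apart, with KO lower, for 4 of the 9 (Trpm5, Avil, Dclk1 and Ptgs1), and with KO higher for 0 of the 9. Among all genes tested, the shares were 11.4% lower and 10.4% higher. Rgs13 and Hpgds were the exceptions in sign, at 0.10 and 0.00.

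On water, of the 9 genes, 5 were below 0 and 4 above, against 50.6% of all genes below 0, with a median of -0.09. The ranges were apart for Avil alone, lower in KO, against 5.21% of all genes lower and 5.18% higher. Without the library labelled KO water replicate 1 the signs on water were the same for all 9 genes, and those that moved most were Gfi1b, from -0.78 to -0.49, Pou2f3, from -0.15 to -0.41, Ptgs1, from 0.23 to 0.47, and Hpgds, from 0.27 to 0.48. For DSS in KO, 8 of 9 signs were the same without it, and Pou2f3 went from -0.06 to 0.20. The WT and the KO response to DSS shared no libraries with each other, but each shared its groups with a genotype comparison. For DSS in WT the ranges were apart for Dclk1, Alox5 and Avil (higher) and Gfi1b (lower), against 12.8% and 11.6% of all genes. For DSS in KO they were apart for Alox5 (higher), against 4.6% of all genes higher and 4.28% lower. The medians were -0.04 in WT and -0.11 in KO.

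Some markers of other cell types differed between the genotypes. Of 6 fibroblast markers, 4 were tested, and their summed normalised count was 144 to 260 in KO after DSS against 5.52 to 37.9 in WT, and 59.7 to 495 in KO against 17.9 to 81.3 in WT on water. Of these, Col1a1, Col3a1 and Col1a2 passed the edgeR threshold after DSS, and Lum was at 3 counts or fewer throughout. Of 8 goblet cell markers, Fcgbp and Zg16 passed after DSS, both lower in KO, and the list's summed normalised count, of which Muc2 made up 58.0% over all libraries, was 251826 to 258741 in KO against 324480 to 346645 in WT. Of the 8, 6 had log2 fold changes below 0 after DSS, and Agr2 and Spdef were at 0.36 (edgeR adjusted p = 0.32) and 0.31 (edgeR adjusted p = 0.27). Of 10 colonocyte markers, Car4, Aqp8 and Krt20 passed after DSS, lower in KO, and the list's sum was 174669 to 181303 in KO against 190022 to 222867 in WT. The sums of 11 enteroendocrine markers overlapped after DSS, at 5229 to 6053 in KO and 4747 to 5948 in WT. Those of 6 stem cell markers after DSS were 3610 to 3817 in KO and 2182 to 2938 in WT. For 5 smooth muscle and interstitial markers, 86.1% of the sum being Ano1, they were 1132 to 1501 in KO and 2681 to 2924 in WT. On water the sums of the stem cell and of the smooth muscle and interstitial markers overlapped. The fit of the 2 groups after DSS called 0.747% of all genes. With all 14 libraries in 1 model none of the 8 marker calls held, and 2 of the 15127 genes passed after DSS. On water, that model called 8.44% of all genes. Of the markers called after DSS, Col1a2 alone passed there, with a log2 fold change of 3.40 (edgeR adjusted p = 0.0214). The part of these shifts in the lower tuft cell values after DSS was not tested.

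Several tuft cell genes are also made by blood cells, so their markers were read beside them. The 5 pan-leukocyte markers summed to 244 to 567 in WT on water, 221 to 707 in KO on water, 286 to 625 in WT after DSS and 402 to 553 in KO after DSS, and these ranges overlapped. The 7 myeloid markers summed to 107 to 248 in WT on water (mean 209) and 243 to 303 in WT after DSS (mean 276). In KO they summed to 233 to 302 on water and 237 to 272 after DSS. The myeloid ranges overlapped too. Of 9 mast cell markers, Cpa3 had 0 to 11 counts, Ms4a2 0 to 4 and Fcer1a at most 3 in any library, and Kit alone made up 89.1% of the list's sum. The mast cell proteases Mcpt1 and Mcpt2 had 20 to 186 and 0 to 65 counts. Mcpt1 was at a normalised count of 35.6 ± 11.3 in WT and 103 ± 69.8 in KO on water (n = 4 each, log2 fold change 1.54, SE 0.51, edgeR adjusted p = 0.16), and Mcpt2 at 6.65 ± 6.48 and 41.2 ± 21.1 (2.65, SE 0.84, edgeR adjusted p = 0.16). After DSS their log2 fold changes in KO were 0.74 (-0.50 to 1.98) and 0.87 (-0.62 to 2.37). Without the library labelled KO water replicate 1, their KO values on water were 125 ± 66.6 and 43.5 ± 25.3 (n = 3). Cpa3, Hdc, Fcer1a and Ms4a2 also had higher means in KO on both treatments, but Tpsb2 had lower ones. Mcpt4 and Kit had higher means in KO on water and lower ones after DSS. In WT and KO, Kit was at 1017 and 1235 on water and 912 and 824 after DSS. The list's sum overlapped between the genotypes on both treatments. The part of blood cells in the levels of Hpgds, Alox5 and Ptgs1 was not tested.

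The tuft cell genes did not all rise and fall together from library to library. Over the 14 libraries, the Pearson correlation between their levels (log2 of normalised count plus 1) was above 0 for 22 of the 36 pairs and below 0 for 14, with a median of 0.12. The highest was 0.65, between Avil and Alox5, followed by 0.62 between Gfi1b and Ptgs1 and 0.55 between Gfi1b and Trpm5. The lowest was -0.64, between Alox5 and Hpgds, which both act in eicosanoid synthesis, and Rgs13 and Alox5 stood at -0.58. Pou2f3 correlated with Trpm5 at 0.33 and with Dclk1 at 0.13. Sorted by sign after the values were seen, Gfi1b, Trpm5, Rgs13, Ptgs1 and Hpgds correlated above 0 in all 10 of their pairs (0.12 to 0.62), and Pou2f3, Dclk1, Avil and Alox5 in all 6 of theirs (0.07 to 0.65). Of the 20 pairs between these sets, 14 were below 0. These points share their libraries, groups and depth, and counts as low as those of Gfi1b add noise of their own, so the values are descriptions.

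**Figure D3:**
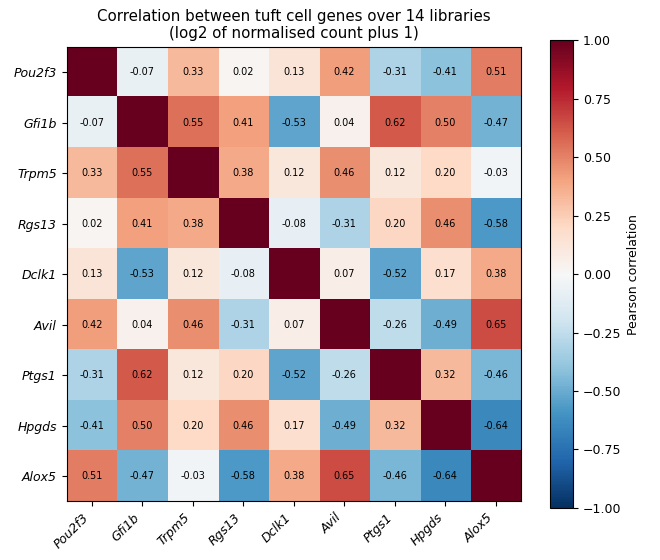
Pearson correlation (colour, and number in each cell) between the levels of each pair of the 9 tested tuft cell genes over 14 libraries, from -1 (blue) to 1 (red). Values run from -0.64 for Alox5 with Hpgds to 0.65 for Avil with Alox5, and Gfi1b, Trpm5, Rgs13, Ptgs1 and Hpgds on the one hand, and Pou2f3, Dclk1, Avil and Alox5 on the other, have values above 0 with every gene of their own set.

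The genes whose pattern was most like the mean standardised level of the 9 tuft cell genes were ranked among 11573 genes with a mean of at least 50 normalised counts. They were Cyp4f14 (Pearson correlation 0.85), Anxa13 (0.81), Gm11131 (0.78), Sct (0.77), Ang4 (0.77), Cdkn1c (0.75), Hsd3b2 (0.74), Sdr42e1 (0.73), Krt20 (0.71) and Lrfn3 (0.71), all over 14 libraries. None is on the lists of tuft cell genes used here. Of the genes on those lists, Limd2 stood at rank 44 with 0.64. Among the 10, Sct, which encodes the hormone secretin, had a normalised count of 293 ± 101 in WT and 77.5 ± 45.7 in KO on water (n = 4 each) and 185 ± 93.4 in WT and 43.6 ± 14.9 in KO after DSS (n = 3 each). Without the library labelled KO water replicate 1 the KO value on water was 57.0 ± 24.4 (n = 3). Sct passed the threshold after DSS at an edgeR adjusted p of 0.0461, with a log2 fold change of -2.08 (SE 0.38), and so did Krt20 at 0.0316, with -0.85 (SE 0.14), but neither did after DSS with all 14 libraries in 1 model. In that model Sct passed between the genotypes on water, with a log2 fold change of -1.92 and an edgeR adjusted p of 0.0243.

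Wider lists of tuft cell genes, by role, held 66 further genes, of which 65 were matched to the table and 62 tested. In the genotype comparison after DSS, edgeR called 3 of the 62, all higher in KO, against 0.747% of all genes. In the other 4 comparisons it called none. At an unadjusted p under 0.05 were 9, 17, 4 and 2 of the 62 (KO against WT on water, DSS in WT, DSS in KO and the difference). The shares of all genes were 20.4%, 24.2%, 6.37% and 7.5%. DESeq2 called 5, 9, 0 and 0 in the same order, against 5.2%, 11.4%, 0.476% and 0.0529% of all genes. DESeq2 called 6 after DSS between the genotypes, against 3.23% of all genes. Pla2g4a and Rgs2, both also made by other epithelial cells, are described here.

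Pla2g4a, the phospholipase that frees arachidonic acid for eicosanoid synthesis, had a normalised count of 1087 ± 42.0 in WT and 1653 ± 168 in KO after DSS (n = 3 each). All KO libraries, at 1549 or above, exceeded all WT libraries, at 1119 or below. The log2 fold change was 0.61 (SE 0.10, edgeR adjusted p = 0.0336). On water it was 0.91 (SE 0.22, edgeR adjusted p = 0.15, DESeq2 adjusted p = 0.0124), from 722 ± 144 in WT to 1358 ± 366 in KO (n = 4 each). Without the library labelled KO water replicate 1 the KO value on water was 1430 ± 412 (n = 3).

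Rgs2, a regulator of G protein signals, was at 183 ± 47.6 in WT and 374 ± 27.2 in KO after DSS (n = 3 each, log2 fold change 1.04, SE 0.18, edgeR adjusted p = 0.0429). Both calls were lost when all 14 libraries entered 1 model (edgeR adjusted p of 0.78 and 1.00 for Pla2g4a and Rgs2), when the replicate number was a block (0.0545 and 0.0634), and within the 5 DSS libraries whose names begin with D (0.0923 and 0.112). Pla2g4a also lost its call without any 1 of the 6 libraries, and Rgs2 without any 1 of 5. The direction was kept in each.

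**Figure D4:**
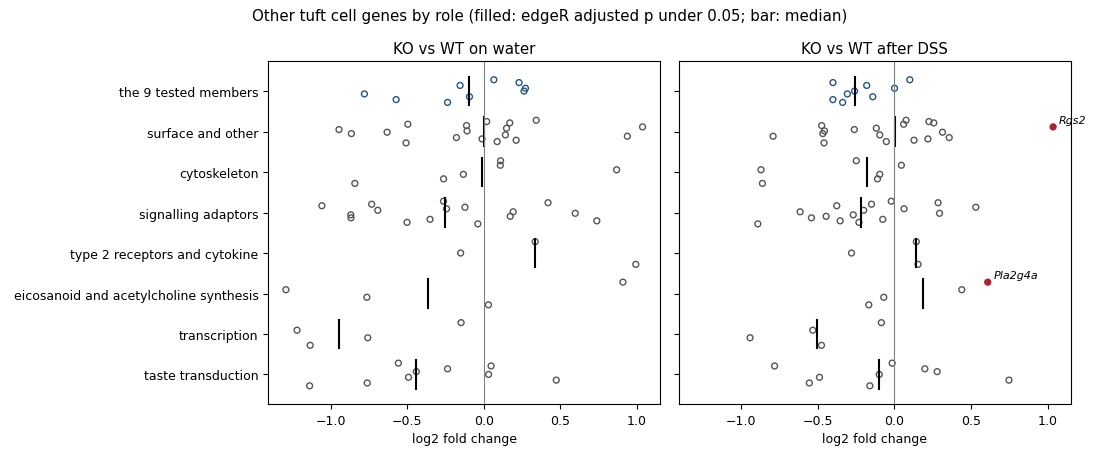
Log2 fold change of KO over WT (x axis) on water (left) and after DSS (right) for further tuft cell genes, by list (y axis), with the median of the genes drawn as a black bar and genes past an edgeR adjusted p of 0.05 filled in red. After DSS, Pla2g4a and Rgs2 are past the threshold, at 0.61 and 1.04, and the 9 tested tuft cell genes (top, blue) have a median of -0.26, which was -0.0029 without WT DSS replicate 3.

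In the fits of 2 groups, no gene of the lists passed the edgeR threshold between the genotypes beyond the 3 calls after DSS. With all 14 libraries in 1 model, 6 of the 62 passed on water, against 8.44% of all genes, among them Il13ra1 (0.99, edgeR adjusted p = 0.0214) and Pla2g4a (0.91, edgeR adjusted p = 0.0218), higher in KO, and Inpp5j (-0.86, edgeR adjusted p = 0.0214) and Espn (-0.84, edgeR adjusted p = 0.0317), lower. All 4 genes of the transcription list (Spib, Hmx2, Hmx3 and 1810046K07Rik) had log2 fold changes below 0 on water and after DSS. Their median was -0.95 on water and -0.50 after DSS. Hmx2, Hmx3 and 1810046K07Rik had only 3 to 34, 0 to 31 and 7 to 42 counts per library, so depth limits these values. Spib, the gene with the most counts, overlapped between the genotypes on both treatments. Its normalised count on water was 97.7 to 119 in WT and 59.7 to 166 in KO. After DSS it was 82.3 to 121 in WT and 85.9 to 121 in KO. In the taste transduction list, 6 of 9 genes were below 0 on water, with a median of -0.44, and 6 of 9 after DSS, with a median of -0.10. Plcb2, the phospholipase of the taste cascade, was at -0.44 on water (-1.26 to 0.38) and 0.28 after DSS (-0.28 to 0.84). In the list of signalling adaptors, 12 of 17 were below 0 on water and 13 of 17 after DSS, with medians of -0.26 and -0.23. The medians on water and after DSS were 0.34 and 0.14 for the type 2 list, -0.37 and 0.18 for the eicosanoid and acetylcholine list, 0.11 and -0.11 for the cytoskeleton list and 0.00 and 0.00 for the surface list. The median over all genes was -0.01 on water and 0.00 after DSS. All the medians on water here include the library labelled KO water replicate 1.

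The receptors of the type 2 circuit were read with its ligands. Il13ra1, a subunit of the interleukin 13 receptor that many epithelial cells carry, had a log2 fold change of 0.99 in KO on water (SE 0.21, edgeR adjusted p = 0.15, DESeq2 adjusted p = 0.0037) and 0.15 after DSS (-0.07 to 0.37). For DSS in WT it was 0.84 (SE 0.19, edgeR adjusted p = 0.0878, DESeq2 adjusted p = 0.0034), and for DSS in KO 0.00 (-0.38 to 0.38). Its normalised count on water was 1496 ± 385 in WT and 2979 ± 561 in KO (n = 4 each). Without the library labelled KO water replicate 1 the KO value was 3046 ± 667 (n = 3). Il17rb, a subunit of the interleukin 25 receptor that tuft cells also carry, was at -0.15 on water (-0.96 to 0.65) and -0.28 after DSS (-0.90 to 0.34) between the genotypes. Transcripts of the cytokines Il4, Il5 and Il13 had at most 3 counts in any library and Il9 had none. Il33, an alarmin, had 4 to 45 counts, and its log2 fold change was below 0 in all 4 comparisons between groups, from -0.50 to -0.73, without passing the threshold. Without the library labelled KO water replicate 1 it was -1.12 between the genotypes on water (edgeR adjusted p = 0.40) and -0.10 for DSS in KO (edgeR adjusted p = 0.99).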

How the data were processed

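The authors aligned polyA RNA-seq reads to mm9 with HISAT2 and deposited raw featureCounts counts per gene for 14 libraries; whether strand was used is not given in the sources used here. Gene names came from GENCODE M1 on NCBIM37, in which 37310 of 37680 IDs were found. The members and gene lists were chosen with earlier results of these data known. The 15127 genes that reached 10 counts in 3 or more libraries entered edgeR 4.0.16 (TMM, quasi-likelihood, Benjamini-Hochberg adjustment over all genes, threshold 0.05) on the libraries of the 2 groups compared, and the difference of the DSS responses on all 14. A normalised count is the count divided by the TMM effective library size and multiplied by the mean effective size, 20028825. DESeq2 1.42.0 and the other alternatives are given with the closing values. The genes named were the 10 members, the further tuft cell genes past the edgeR threshold (at most 10, smallest adjusted p first), and the 10 genes most alike in pattern. Other listed genes named in the text were chosen after their values were seen. Scripts were tested on simulated data. No 2 libraries agreed within sampling noise. Depth and the number of libraries limit the precision, and intervals for members rest on the spread between libraries. Results of 2 genes on the wider lists are not reported here.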

Additional observations from a re-analysis of the deposited data

Results flagged for a closer look

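Il25 was singled out in 2 of the 20 sets of 4 libraries that were examined for a library far from the rest (each tuft cell gene in each water group). Its highest library was at a normalised count of 1.48 in WT on water (2 counts) and 8.56 in KO on water (8 counts, replicate 4), while the other 3 libraries of each group were at 0. Chance marks about 1 in 20 such sets, and with counts this low a single library with reads meets the criterion whenever the others have none.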

How the results depend on the processing

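Each of the 9 tested genes was recomputed in 5 comparisons under every alternative, which gave 895 log2 fold changes: 810 kept their sign and 85 changed it, 5 of these by more than the standard error. The 5 were Hpgds, KO against WT on water, at -0.17 without KO water replicate 2 (up to 0.48 with any other library left out), Trpm5, DSS in WT, at 0.22 with library totals in place of TMM, which moved the median of all genes by 0.22, and, with the first letters of the library names as a term, DSS in KO for Alox5 (-0.017), Dclk1 (-0.21) and Rgs13 (0.24). The cause was not tested. The count of tuft cell genes called was 0 throughout, save 1 (Avil) between the genotypes on water with all 14 libraries in 1 model and without KO water replicate 1. Leaving out each library in turn gave 0 in each comparison. The replicate numbers did not pair the libraries: deviations of libraries with the same number correlated at -0.075 to 0.049, save 0.32 for replicate 4 on water, and 2 of 8, 0 of 6, 1 of 6 and 1 of 6 libraries correlated best with their own number. With the replicate block the count of tuft cell genes called was 0 in every comparison. Counts over all genes moved more. Between genotypes on water (1 gene), they were 55 with no filter, 786 with DESeq2, 1276 with all 14 libraries in 1 model, 473 with the replicate block, 2018 with the name letters, 2 without the 2 WT libraries rich in mitochondrial counts and 1 to 1740 with 1 library left out (13 without KO water replicate 1 and 1740 without KO water replicate 4). Without KO water replicate 1 they were also 1148 with all 14 libraries in 1 model, 28 with the replicate block and 630 with DESeq2. Between genotypes after DSS (113), in the order of the first 5 settings, they were 345, 489, 2, 57 and 1, with 8 in 1 model without KO water replicate 1, 42 within the libraries whose names begin with D and 27 to 96 with 1 library left out. For DSS in WT (0) they were 457, 1724, 0, 54 and 2, with 2 for library totals, 1 without the 2 libraries rich in mitochondrial counts, 9 within the libraries whose names begin with D and 0 to 418 with 1 left out (25 without WT water replicate 4 and 418 without WT water replicate 2). For DSS in KO (1) they were 19, 72, 10 and 15 for the first 4 settings, 5, 64 and 4 without KO water replicate 1 (1 model, DESeq2 and the block) and 1 to 3 with 1 left out. For the difference of the responses (1) they were 2 with no filter, 8 with DESeq2, 24 with DESeq2 without KO water replicate 1 and 1 to 5 with 1 left out. The fits that combine KO water replicate 1 with another change, those within the D libraries and those without the libraries rich in mitochondrial counts were chosen after seeing the data. At 0 to 8 counts for Il25 and 3 to 22 for Gfi1b, depth limits what can be said of these genes.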
